A study of Mus musculus with 8 samples.

Results

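Ephrins and Eph receptors were described in cells sorted from mouse hearts at stage E10.5 (embryonic day): 10 genes, 5 receptors (Epha4, Epha7, Ephb2, Ephb3 and Ephb4) and 5 ligands (Efna1, Efna5, Efnb1, Efnb2 and Efnb3), chosen by their gene names in the array files out of 27731 gene names on the array. All embryos carried the minKGFP transgene, a BAC (bacterial artificial chromosome) reporter with GFP that is named for minK, the potassium channel subunit encoded by Kcne1, so both groups came from transgenic hearts. The GFP-high group (4 arrays) is labelled as conduction system and the GFP-low group (4 arrays) as chamber myocardium; the gate was fluorescence alone, and the labels do not say how many embryos went into a sample. The series calls the samples of a group biological replicates. The comparison asks whether the molecules that keep neighbouring cell populations apart differ between these groups.

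Eph receptors are receptor tyrosine kinases, and their ephrin ligands are themselves held in the cell membrane, so signalling needs contact between cells and runs both ways: forward into the cell with the receptor and reverse into the cell with the ephrin. Class A ephrins are tied to the membrane by a lipid anchor and class B ephrins cross it, and each class mostly binds receptors of its own letter, with some crossing over. The usual outcome is repulsion or sorting at a tissue boundary, and in the early vasculature ephrin-B2 marks arterial and Ephb4 venous endothelium.

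The 10 genes were read by 16 probes, each a 60-base oligonucleotide; 6 genes had 2 probes and 4 had 1. The probes below belong to the member with the most negative difference (Epha7), the member with the most positive one (Ephb2), and a ligand whose sign turned when single arrays were left out (Efna5). They are printed 5′ to 3′ in lower case as the array holds them, with positions on mouse build mm9. The files do not say in which exon or untranslated region a probe lies.
Epha7: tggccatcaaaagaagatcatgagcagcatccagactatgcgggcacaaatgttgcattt
Ephb2: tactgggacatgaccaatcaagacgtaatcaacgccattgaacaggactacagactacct
Efna5: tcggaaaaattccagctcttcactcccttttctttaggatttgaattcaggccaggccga
The Epha7 probe lies at chr4:28891069-28891128 on the plus strand and the Efna5 probe at chr17:63000207-63000266 on the minus strand. The Ephb2 probe is placed over chr4:136213476-136214873 on the minus strand, a span of 1398 bases for 60 bases of probe, so it is matched across a gap in the genome; it was the 1 probe of the 16 for which this held. All 3 probes have a GC content of 45%.

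A level is given as log2 of the processed signal minus the 75th percentile of its own array, so a level of 0 is the signal that 1 in 4 spots exceed. Levels of different probes are not compared, because probes differ in how well they bind. Between 36.3% and 50.7% of the spots of an array were well above background, with no separation of the groups (44.0% ± 5.9 in GFP-high and 45.3% ± 4.2 in GFP-low, SD, n = 4 each; exact two-sided permutation test, p = 0.743). On each of its probes, Kcne1 read higher on every GFP-high array than on every GFP-low one; both were well above background on all 8 arrays. The brighter probe differed by 1.29 ± 0.35 (log2, SE, limma adjusted p = 0.202) and did not pass, while the other differed by 2.83 (adjusted p = 0.0311 in a limma fit over all probes) and the average over both by 2.06 (limma adjusted p = 0.0380). All 8 cardiomyocyte markers were well above background on all 8 arrays, with a summed level of 2096 to 3199 in GFP-high and 1389 to 2519.9 in GFP-low, in multiples of the 75th percentile of an array. The ranges overlapped, but all 8 markers had a higher mean in GFP-high, as did 62.1% of all tested genes. Their median difference was 0.34 (log2), beside 0.16 over all tested genes. Of the 8 markers, 0 passed a limma adjusted p of 0.05, as did 0.14% of all tested genes. Replicates 1 and 2 of both groups were on slide 1 and replicates 3 and 4 on slide 2.

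No ephrin or Eph receptor passed the test between the groups. Of the 10 members, 8 were well above background on at least 4 arrays and were tested; Epha4 and Efna1 were not. In limma, with adjustment over 12874 genes, 0 of the 8 passed an adjusted p of 0.05, with the lowest at 0.342; 1 of the 8, Epha7, had an unadjusted p below the same value. Over all tested genes 0.14% passed the adjusted threshold (0.0699% higher and 0.0699% lower in GFP-high) and 14.3% the unadjusted one, so both counts of members were near those of the array as a whole. The arrays of the 2 groups overlapped in all 8 members, while 8.95% of all tested genes had groups that did not overlap. A positive difference (GFP-high minus GFP-low) was found in 2 of 4 tested receptors and 1 of 4 tested ligands, against 62.1% of all tested genes, and the median difference over all tested genes stood at 0.16. In sorted bulk samples, fewer cells that express a gene and less RNA per cell cannot be told apart.

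**Figure D1:**
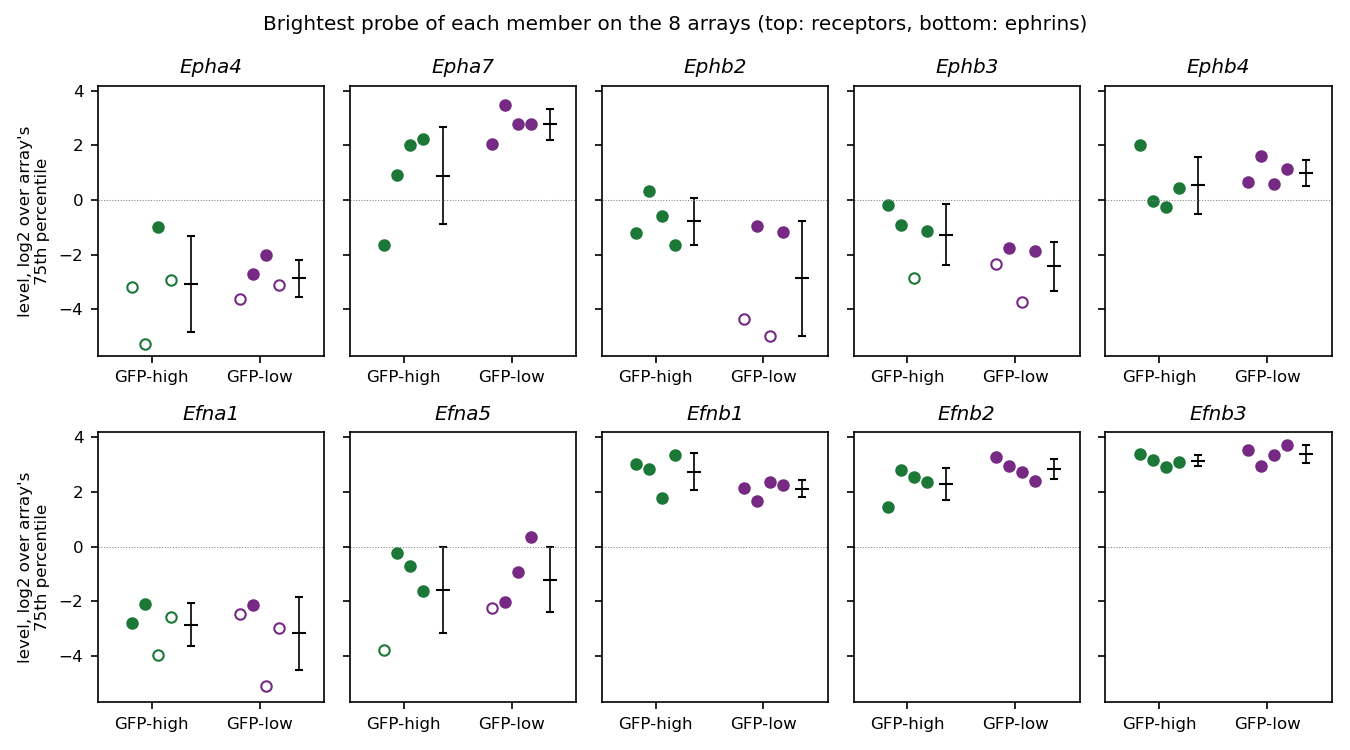
Level of the brightest probe of each member (log2 of the signal over the 75th percentile of the array, vertical axis) on the 4 GFP-high (green) and 4 GFP-low (purple) arrays, in replicate order from left to right; filled points are well above background, open points are not, and bars give mean and SD. In each of the 10 panels the ranges of the groups overlap, and GFP-high replicate 1 is the lowest array for Epha7, at -1.64.

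Among the receptors, Epha7 had the most negative difference. Epha7 is a class A receptor known for its part in axon guidance and in neural tube closure. Its brighter probe read -1.64, 0.92, 2.03 and 2.23 in GFP-high replicates 1 to 4, and 2.05, 3.47, 2.78 and 2.80 in GFP-low replicates 1 to 4, and it was well above background on all 8 arrays. Of the GFP-high arrays 3 lay below every GFP-low array, and the fourth, replicate 4, lay above the lowest GFP-low array, so the groups overlapped. The means were 0.89 ± 1.78 and 2.77 ± 0.58 (SD, n = 4 each), and GFP-high minus GFP-low was -1.89 ± 0.81 on the log2 scale (SE, limma adjusted p = 0.342; 3.70-fold lower in GFP-high). The 95% interval ran from -3.73 to -0.04, and the exact two-sided permutation p was 0.0571. GFP-high replicate 1 was the lowest array: without it the difference was -1.05 (limma adjusted p = 0.485). The difference was -3.12 within slide 1, which holds that array, and -0.66 within slide 2.

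The other probe of Epha7, at chr4:28873570-28873629, did not show the same. The files assign it to transcript variant 2 of the gene and the brighter probe to transcript variant 1. It was well above background on only 2 arrays of each group. Its levels were -5.35, -1.52, -3.17 and -0.75 in GFP-high and -2.98, -3.00, -2.20 and -2.84 in GFP-low, with GFP-high arrays both highest and lowest. The difference was 0.06 (exact two-sided permutation test, p = 1), and 0.40 with normexp background correction. The mean over both probes differed by -0.92 (limma adjusted p = 0.589).

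The class B receptors Ephb2 and Ephb3 had positive differences, but at levels near background. Ephb2 takes part in axon guidance and in the sorting of cells along the gut lining. Its brighter probe read -1.21, 0.32, -0.60 and -1.65 in GFP-high and -4.34, -0.95, -4.99 and -1.16 in GFP-low. It was well above background on all 4 GFP-high arrays but only on GFP-low replicates 2 and 4, and those 2 arrays lay within the GFP-high range. The difference was 2.08 ± 0.97 (SE, limma adjusted p = 0.368; 4.21-fold higher in GFP-high), with a 95% interval from -0.14 to 4.29. The within-slide values were 2.20 and 1.95.

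The second Ephb2 probe, at chr4:136210602-136210661, read -2.60, -2.10, -1.78 and -1.49 in GFP-high and -3.62, -2.48, -5.16 and -4.58 in GFP-low. It was well above background on 3 GFP-high arrays and on 1 GFP-low array. All GFP-high arrays but replicate 1 lay above every GFP-low array, and the difference was 1.97 (exact two-sided permutation test, p = 0.0571). The values of both probes moved with the handling of signals near background. With normexp background correction the brighter probe differed by 0.83 (limma adjusted p = 0.338) and the second by 0.60. With a common floor under all arrays the brighter probe differed by 0.59 (limma adjusted p = 0.542) and the second by 0.051.

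Ephb3 is a close relative of Ephb2 that acts beside it in the same tissues. It read -0.19, -0.92, -2.84 and -1.12 in GFP-high and -2.34, -1.77, -3.72 and -1.88 in GFP-low. In GFP-high 3 arrays and in GFP-low 2 were well above background, and GFP-high replicates 1, 2 and 4 lay above all GFP-low arrays while replicate 3 lay among them. The difference was 1.16 ± 0.63 (SE, limma adjusted p = 0.422; 95% interval -0.28 to 2.61), and 0.56 with normexp (limma adjusted p = 0.493). Its probe lies at chr16:21223025-21223084.

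Ephb4 is the receptor for ephrin-B2 on venous endothelium. Its brighter probe (chr5:137815289-137815348), well above background on all 8 arrays, read 2.03, -0.04, -0.27 and 0.45 in GFP-high and 0.66, 1.62, 0.59 and 1.14 in GFP-low. GFP-high replicate 1 was the highest of the 8 arrays and the 3 other GFP-high arrays were the lowest 3. The difference was -0.46 ± 0.52 (SE, limma adjusted p = 0.690; 95% interval -1.64 to 0.72) and -0.95 without GFP-high replicate 1 (limma adjusted p = 0.427). The second probe, for which the files give no position, had a difference of 0.14 (exact two-sided permutation test, p = 0.914). Epha4, a receptor that binds ephrins of both classes, cleared background on GFP-high replicate 3 and GFP-low replicates 2 and 3 on its brighter probe and on no array on the other, so no difference was tested.

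Among the ligands, the class B ephrins were the best measured members: Efnb1, Efnb2 and Efnb3 were well above background on all 8 arrays on each of their probes. Efnb1, an X-linked gene whose product patterns skeletal and craniofacial boundaries, read 3.02, 2.83, 1.77 and 3.34 in GFP-high and 2.16, 1.66, 2.38 and 2.24 in GFP-low. Of the GFP-high arrays 3 lay above every GFP-low array, and replicate 3 lay within the GFP-low range. The difference was 0.63 ± 0.37 (SE, limma adjusted p = 0.454; 1.55-fold), with a 95% interval from -0.22 to 1.47, and it was 1.01 within slide 1 and 0.25 within slide 2. Its probe lies at chrX:96343505-96343564.

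Efnb2, the ephrin of arterial endothelium and endocardium, had lower levels in GFP-high on both of its probes, short of the threshold. The brighter probe (chr8:8618177-8618236) read 1.46, 2.80, 2.55 and 2.35 in GFP-high and 3.27, 2.95, 2.73 and 2.41 in GFP-low. GFP-high replicate 1 was the lowest array and the other GFP-high arrays lay among or just below the GFP-low ones. The difference was -0.55 ± 0.35 (SE, limma adjusted p = 0.486; 95% interval -1.34 to 0.25), and -0.27 without GFP-high replicate 1 (limma adjusted p = 0.784). The other probe (chr8:8619222-8619281) read 1.50, 1.22, 2.41 and 1.46 in GFP-high and 2.84, 2.79, 2.99 and 2.21 in GFP-low. There GFP-high replicates 1, 2 and 4 lay below all GFP-low arrays and replicate 3 did not, and the difference was -1.06 (exact two-sided permutation test, p = 0.0571; adjusted p = 0.259 in a limma fit over all probes). Averaged over both probes the gene differed by -0.80 (limma adjusted p = 0.288).

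Endothelial markers give the setting for Efnb2 and Ephb4. Of 10 endothelial and endocardial markers 4 were well above background on at least 4 arrays, and Pecam1, Tek and Eng were not on any array. The summed level of all 10 markers, well above background or not, ran from 1.67 to 5.17 in GFP-high and from 2.14 to 5.94 in GFP-low. It is given in multiples of the 75th percentile of an array, and the groups overlapped. The part of endothelial cells in the levels of Efnb2 and Ephb4 was not tested.

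Efnb3, a class B ephrin known as a midline barrier for axons of the spinal cord, was the member with the smallest spread. It read 3.40, 3.16, 2.91 and 3.09 in GFP-high and 3.54, 2.97, 3.37 and 3.73 in GFP-low (chr11:69367911-69367970). The arrays of the groups lay among each other, and the difference was -0.26 ± 0.25 (SE, limma adjusted p = 0.643). The 95% interval, -0.84 to 0.32, was the narrowest of the 8 members.

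The class A ephrins were well above background on fewer arrays. Efna5, a repellent ligand best known from the visual system, read -3.81, -0.25, -0.73 and -1.62 in GFP-high and -2.23, -2.04, -0.92 and 0.34 in GFP-low on its brighter probe, well above background on 3 arrays of each group. The groups lay across each other, and the difference of -0.39 ± 0.85 (SE, limma adjusted p = 0.847) became 0.35 without GFP-high replicate 1. The files assign that probe to transcript variant 2 and the other (chr17:62954177-62954236) to transcript variant 1, though both list both records. On the other probe the levels were -4.99, -2.88, -0.70 and -1.87 in GFP-high and -1.44, -2.24, 0.20 and -0.53 in GFP-low. That probe was well above background on 3 GFP-high arrays and all 4 GFP-low arrays, and its difference was -1.61 (exact two-sided permutation test, p = 0.200), or -0.43 with normexp and -0.58 with a common floor. Efna1, an ephrin of endothelial cells that acts on class A receptors, was well above background on GFP-high replicates 1 and 2 and on GFP-low replicate 2 only.

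**Figure D2:**
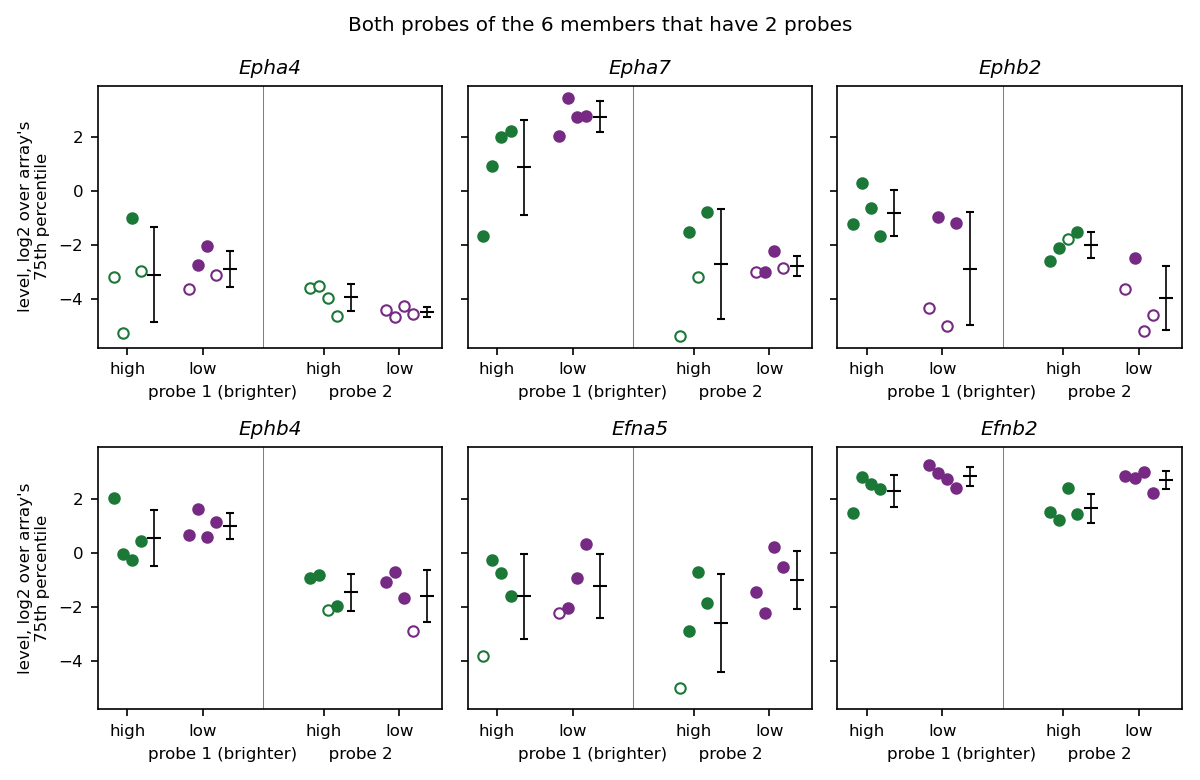
Levels (log2 over the 75th percentile of the array) on both probes of the 6 members with 2 probes, GFP-high in green and GFP-low in purple, open points not well above background, bars mean and SD. The mean differences of both probes have the same sign for Ephb2, Efna5 and Efnb2 and opposite signs for Epha7 and Ephb4; most points of Epha4 are open, so no sign is read from it.

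In 5 members both probes were well above background on at least 4 arrays. The differences had the same sign on both probes in 3 of them (Ephb2, Efna5 and Efnb2) and opposite signs in 2 (Epha7 and Ephb4), also with normexp and with a common floor. The second probes of Epha7 and Ephb4 differed by only 0.06 and 0.14. Of the 16 probes, 6 were well above background on all 8 arrays, 7 on 4 to 7 arrays, 2 on 1 to 3 arrays and 1 on none. No probe of the 16 had groups that did not overlap.

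The array also holds 12 other genes of the family, 9 receptors and 3 ephrins. Of these Epha1, Epha2, Ephb1 and Efna4 were tested, Efna3 was well above background on 1 array, and the remaining 7 (Epha3, Epha5, Epha6, Epha8, Epha10, Ephb6 and Efna2) on none. Epha3, a receptor known from the valve-forming cushions, was thus not well above background on any array with any of its 3 probes. All 4 tested genes had positive differences, as did 62.1% of all tested genes. Of the 4, 0 passed the limma test over all genes (0.14% of all) and 2 had an unadjusted p below 0.05 (14.3% of all).

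Epha2, an epithelial class A receptor, was the 1 gene of the 12 tested family genes whose groups did not overlap. It read 1.29, 1.25, 1.94 and 1.67 in GFP-high and 0.31, -0.67, 1.15 and 0.92 in GFP-low, well above background throughout (chr4:140885139-140885198). The difference was 1.11 ± 0.42 (SE, limma adjusted p = 0.300; 2.15-fold), with an exact two-sided permutation p of 0.0286, the smallest that 4 against 4 arrays can give. Within the slides it was 1.45 and 0.77. Any gene with non-overlapping groups has this permutation p. Of all tested genes 8.95% had non-overlapping groups in either direction and 5.86% in this direction.

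Ephb1, a class B receptor, read -0.93, -0.18, -1.71 and -1.32 in GFP-high and -2.68, -2.36, -1.41 and -4.48 in GFP-low. It was well above background on GFP-high replicates 1, 2 and 4 and GFP-low replicates 2 and 3. The groups overlapped by 1 pair of arrays, GFP-high replicate 3 and GFP-low replicate 3. The difference was 1.70 ± 0.63 (SE, limma adjusted p = 0.299), 0.75 with normexp (limma adjusted p = 0.218) and 0.59 with a common floor (limma adjusted p = 0.405). Epha1, an epithelial receptor, differed by 0.17 ± 0.24 and Efna4 by 0.15 ± 0.50 (SE, limma adjusted p = 0.757 and 0.902). Over members and relatives, 5 of 7 tested receptors and 2 of 5 tested ephrins had positive differences, against 62.1% of all tested genes. Among the members alone the median difference was 0.35 over 4 receptors and -0.32 over 4 ligands, beside 0.16 over all tested genes. Without GFP-high replicate 1 it was -0.076 over receptors and 0.039 over ligands, and with no filter -0.22 over receptors. The receptor median was -1.17 over the pair of member receptors well above background on all 8 arrays, Epha7 and Ephb4.

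**Figure D3:**
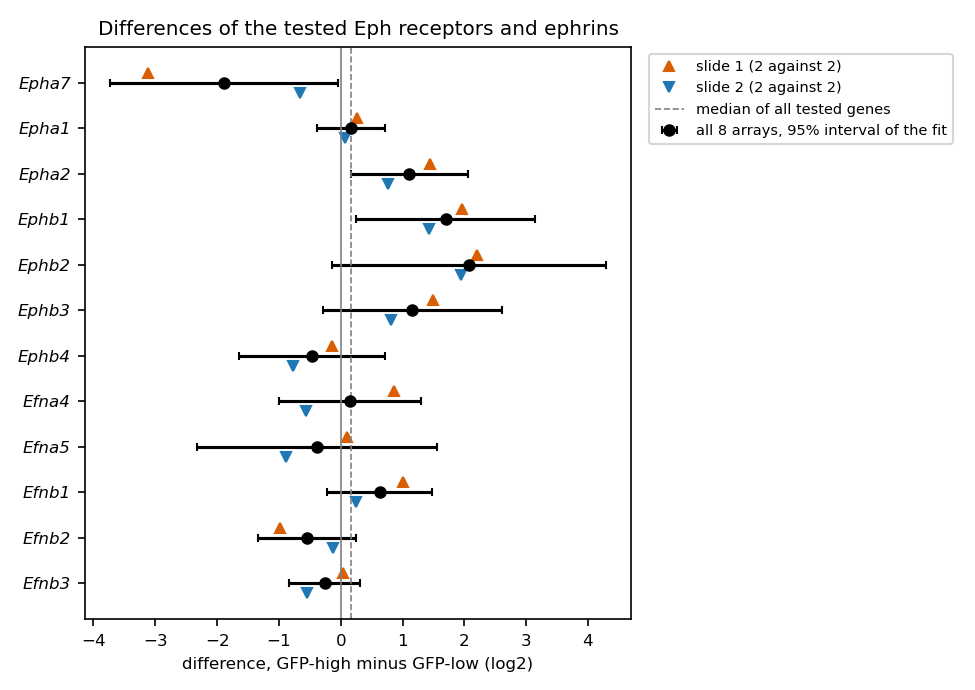
Difference between GFP-high and GFP-low (log2, horizontal axis) for the 12 tested family genes: black points with 95% intervals from the fit over 8 arrays, triangles the difference within slide 1 and within slide 2, the dashed line the median of all tested genes at 0.16. The intervals of 9 genes hold 0, those of Epha7, Epha2 and Ephb1 do not, and no adjusted p is below 0.299.

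Downstream of the receptors, 45 genes were taken as a signalling list: adaptors, exchange factors, kinases, small GTPases, partners of reverse signalling and proteases that cut ephrins. All were on the array, 37 were tested, and 0 passed the limma test over all genes in either direction (3 at an unadjusted p below 0.05). Positive differences were found in 23 and negative ones in 14, with a median of 0.18 beside 0.16 over all tested genes. In each role the gene with the smallest p is named here.

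Crk, an adaptor that links active receptors to exchange factors, had levels of 0.21, 0.46, 2.25 and 0.34 in GFP-high and 1.93, 2.64, 2.91 and 1.83 in GFP-low. Of the GFP-high arrays 3 lay below all GFP-low arrays and replicate 3 lay among them; the difference was -1.51 ± 0.50 (SE, limma adjusted p = 0.261). Rock1, a kinase that contracts the actin skeleton downstream of RhoA, had -2.41 ± 0.89 (limma adjusted p = 0.294) and was well above background on 6 arrays; with a common floor it had -1.32. Adam10, the protease that sheds ephrins after contact, had -1.39 ± 0.92 (limma adjusted p = 0.501), and Pard6a, a polarity partner of ephrin-B1, had 1.01 ± 0.61 (limma adjusted p = 0.464). Each of them was well above background on 5 arrays, and with a common floor Adam10 had -0.26 and Pard6a 0.37. Rhoa, the GTPase itself, had 0.21 ± 0.24 (limma adjusted p = 0.686), which turned to -0.045 after quantile normalization.

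In 2 of the 37 genes the groups did not overlap, beside 8.95% of all tested genes in either direction. Both were lower in GFP-high, as were 3.08% of all tested genes, and 0 were higher, as were 5.86%. These 2 genes were named after their values were seen. Acp1, a phosphatase that acts on Eph receptors, differed by -0.96 ± 0.32 and Cdc42, a GTPase of the cell edge, by -0.18 ± 0.20 (SE, limma adjusted p = 0.261 and 0.689).

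**Figure D4:**
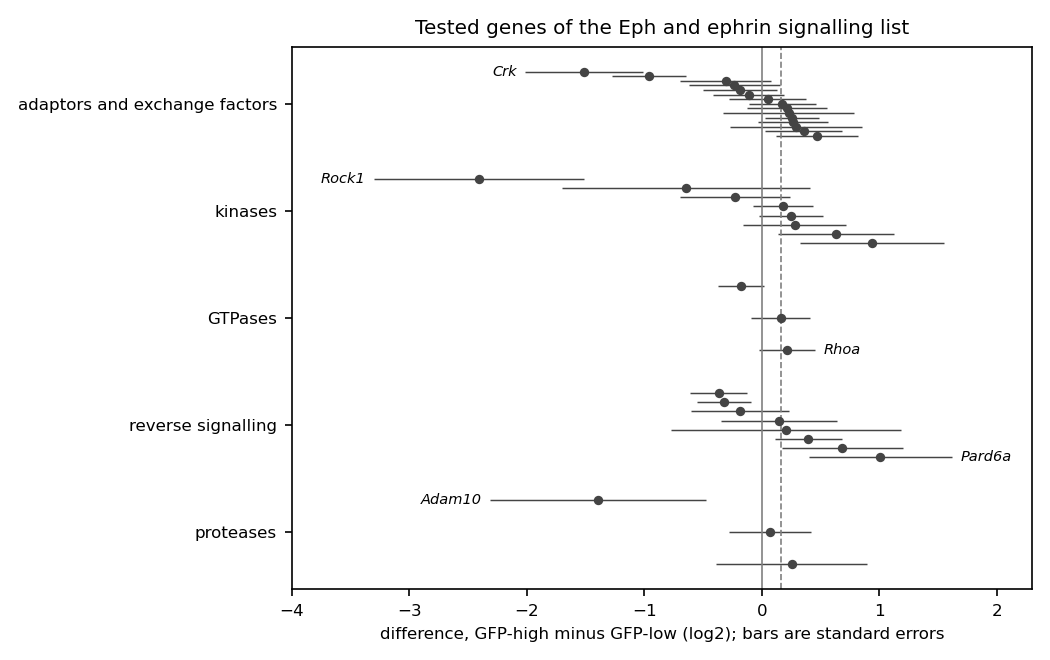
Difference between GFP-high and GFP-low (log2, horizontal axis) of the 37 tested signalling genes by role, with standard errors; solid line at 0, dashed line at the median of all tested genes, 0.16. Most points lie close to both lines, and the labelled genes are those with the smallest p of their role.

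Markers of other cells that the sort could hold were summed in the same unit as above, over all listed markers, tested or not. Cushion mesenchyme markers, 3 of 8 tested, summed to 1.46 to 3.72 and 1.91 to 9.73, with GFP-low replicate 1 at the top. Epicardial markers, 4 of 5 tested, summed to 3.53 to 5.26 and 2.67 to 3.83. Leukocyte markers, 2 of 5 tested, summed to 10.8 to 15.2 in GFP-high and 3.53 to 5.53 in GFP-low, with no overlap of the groups and with Csf1r, Itgam and Ptprc not well above background on any array. Erythroid markers, 4 of 6 tested, summed to 20.1 to 149 and 10.3 to 133. The part of these cells in the levels of the ephrins and receptors was not tested.

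As a description of likeness, Epha7 and Efnb3 were set beside all tested genes. They were picked as the tested receptor and ligand whose probes gave the highest mean signal, which does not rank the genes by expression. For Epha7 the most similar levels over the 8 arrays were those of a transcript cluster with no gene symbol (Pearson r = 0.983), Sub1 (0.983) and Asnsd1 (0.980), and 1.24% of tested genes had an r above 0.9. For Efnb3 they were Nek3 (0.950), Usp48 (0.937) and Fbxo16 (0.918), and 0.047% of tested genes had an r above 0.9. These r take both groups together. GFP-high replicate 1, the lowest array for Epha7 at -1.64, can weigh heavily on the r of Epha7, also within GFP-high. Within 1 group, over only 4 arrays, the lowest r was 0.756 beside Epha7 (Asnsd1, GFP-low) and 0.707 beside Efnb3 (Usp48, GFP-high). The 2 values behind each point of an r share the scaling and the array.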

How the data were processed

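RNA of 4 GFP-high and 4 GFP-low samples was measured on 8 Agilent 1-colour arrays; per the labels' protocols, each sample began as 5 ng RNA, and 2 ug of its amplified product was labelled. The deposited files hold spot intensities on a linear scale, which per the file headers and the submitters' processing notes were background-subtracted and detrended within each array by Agilent Feature Extraction 10.5.1.1, with surrogates for the lowest signals (34.8% to 49.4% of spots). The authors' series table was identical to these intensities over 45018 spots. No spot was saturated.

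Log2 intensity minus the 75th percentile of each array over 43379 non-control spots was computed in R 4.3.3. Outlier spots were left out (none among the member probes), and spots of 1 probe were averaged. Symbols were updated through the RefSeq table of GRCm38.p6, which changed no family probe. The brightest of a gene's probes stood for it, and it was tested if well above background on at least 4 arrays (12874 of 27731 names). Groups were compared with limma 3.58.1 (lmFit, eBayes, group as the only term) with Benjamini-Hochberg adjustment over all tested genes; the array number limits precision. The code was tested on simulated data. Exact permutation tests used all 70 assignments of the arrays.

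The named genes were all members, tested relatives and, per signalling role, the called genes and the one with the smallest p. Members and lists were chosen with earlier results of these data known. Alternatives were quantile normalization, normexp (offset 50), other filters, a common floor, probe averages, single probes, trend and robust variances, slide and replicate blocks, single slides, left-out arrays and the series table. A list of neural markers is not reported here.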

Additional observations from a re-analysis of the deposited data

How the results depend on the processing

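In 21 alternatives, 0 of 165 values of the 8 tested members and 0 of 226 of the relatives and named signalling genes passed an adjusted p of 0.05. Kcne1 passed in 1 of 21, the average over its probes (2.06, limma adjusted p = 0.0380). With every probe tested, Kcne1 was scored on its brighter probe (limma adjusted p = 0.225), while its other probe passed (limma adjusted p = 0.0311). No member passed, so these runs cannot show stability of a call. Over all genes 18 passed (9 higher, 9 lower). The count was 9 after quantile normalization (4 higher, 5 lower), 20 with normexp (14 and 6), 11 with detection on all 8 arrays (10 and 1), 3 with no filter (2 and 1), 42 with a common floor (32 and 10), 15 with probe averages (9 and 6), 7 with every probe tested (3 and 4), 19 with trend and robust variances (14 and 5), 11 with the slide as a block (3 and 8), 0 within slide 1 and 0 within slide 2, and 0 to 7 without single arrays. Deviations of GFP-high and GFP-low samples of equal number were correlated at 0.11, 0.15, 0.30 and 0.06 for replicates 1 to 4. For samples of unequal number the values ran from -0.20 to 0.08. The values of replicates 1, 2 and 3 lay above that range and that of replicate 4 lay within it. The main fit did not take the numbers as pairs, and whether a number stands for a shared origin was not tested. A replicate block left 0 genes called.

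Among tested members, Epha7, Ephb2, Ephb3, Ephb4, Efnb1 and Efnb2 kept their sign in the alternatives that held them. There a gene was scored on its brightest probe or probe average, and changes of filter, variance model or block cannot change that difference. The second probes of Epha7 and Ephb4 had the opposite sign (0.06 and 0.14). Efna5 turned to 0.11 within slide 1, 0.35 without GFP-high replicate 1 and 0.13 without GFP-low replicate 4 (-0.84 to 0.35 without single arrays), and Efnb3 to 0.031 within slide 1. Efna4 turned to -0.57 within slide 2, -0.23 without GFP-high replicate 2 and -0.03 without GFP-low replicate 3 (-0.23 to 0.54 without single arrays), Pard6a to -0.40 within slide 2 and Rhoa to -0.045 after quantile normalization. Ephb4 had adjusted p from 0.427 to 0.999. The cause of these turns was not tested.

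With detection on all 8 arrays, 0 receptors had positive differences (median -1.17), because Ephb2 and Ephb3 left the test. Ligands with a positive difference numbered 2 with no filter, where Efna1 entered, 3 within slide 1, and 1 to 2 without single arrays; their median was 0.071 within slide 1 and ran from -0.49 to 0.039 without single arrays. The median of the signalling list was -0.061 with probe averages and -0.089 within slide 2, and that of the other family genes 1.16 within slide 1. Signals near background limit Ephb2, Ephb3, Ephb1, the class A ephrins, Rock1, Adam10 and Pard6a.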
